A study of Mus musculus with 8 samples.

Results

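The bombesin-like peptide system of the mouse was read here as 5 genes: the receptor genes Nmbr, Grpr and Brs3 and the peptide genes Nmb and Grp. Members were taken by name, as the non-control probes whose gene name in the scanner files equals one of these symbols. This gave 6 probes of the 39429 on the array, and 5 genes of 30139 gene names. Nmbr led to the choice of the system because it was 1 of 5 genes past an adjusted p of 0.05 in the comparison of genotypes (with Mnd1, Robo3, Asl and Cyp11a1), so the genotype values of all members are given as a description, with no test.

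The arrays measured RNA from whole hippocampus of C57BL/6 mice. Control mice (WT) were Ctcf loxP/loxP and negative for Camk2a-Cre. Conditional knockout mice (CKO) were Ctcf loxP/loxP and positive for Camk2a-Cre, so that every animal of both groups carried the floxed Ctcf alleles and the groups differed in Cre. The Camk2a promoter drives Cre in excitatory neurons of the forebrain, and the other cells of the tissue keep Ctcf. Effects of Cre itself and of Ctcf loss cannot be told apart in this design. Each sample was a pool of 3 mice, with 3 pools per genotype. The make-up was matched between genotypes: 2 females with 1 male at 19 to 23 weeks of age in pool 1, females alone at 18 to 19 weeks in pool 2 and males alone at 15 to 17 weeks in pool 3. All mice had been through behavioural tests. Both pools numbered 1 were put on 2 arrays each and the others on 1, which gave 8 arrays on 2 slides. In bulk tissue, fewer cells of a type and less RNA per cell cannot be told apart.

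Neuromedin B, made from Nmb, and gastrin-releasing peptide, made from Grp, are secreted neuropeptides related to the amphibian peptide bombesin. Neuromedin B prefers the receptor encoded by Nmbr and gastrin-releasing peptide the one encoded by Grpr, while the product of Brs3 binds both natural peptides weakly and is treated as an orphan receptor. All 3 receptors span the membrane and couple mainly to Gq proteins, which activate phospholipase C, release calcium from internal stores and activate protein kinase C. In the forebrain, gastrin-releasing peptide is made by subsets of excitatory neurons and acts on interneurons that carry its receptor.

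The sequence that carries the largest difference in the system is the Nmbr probe, an oligonucleotide of 60 bases, shown because every Nmbr value below comes from it. It is written 5′ to 3′ as deposited, with a stop codon in capitals.
Nmbr probe: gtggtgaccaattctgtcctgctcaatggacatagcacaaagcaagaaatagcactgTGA
Read from its first base, the probe runs open to TGA as codon 20 of 20, and the other reading frames meet a stop at codon 2 and codon 11. It holds no GAA repeat run of 18 bases or more. Nmb was read by 2 probes that share 52 of their 60 bases, so they are not independent measurements of the gene. Bases 29 to 58 of the first Nmb probe are shown, with the polyadenylation signal hexamer in capitals, because both probes hold it.
Nmb probe: ggtgaagtggtgAATAAAaatactgctctt
Grpr, Brs3 and Grp were read by 1 probe each.

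On these arrays 59.2% to 66.0% of spots per array were well above background, a mark the scanner software gives to spots clearly brighter than their surround, and 0 spots were saturated. The second arrays of pool 1 were the dimmest of both genotypes. Levels below are log2 of the processed signal minus log2 of the array's 75th percentile, so that 0 is that percentile's brightness, and a level is never compared between probes. Ctcf itself stood at 0.83, 1.12 and 1.04 in WT pools 1, 2 and 3 and at 0.18, 0.16 and 0.05 in CKO pools, which is -0.87 (SE 0.13) between genotypes, with the highest CKO pool under the lowest WT pool. In the limma test over 18334 genes its adjusted p was 0.143. Blocking on pool number brought it to 0.0292, and over all alternatives it ran from 0.00421 to 1.00.

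Nmbr, the receptor of neuromedin B, was higher in CKO hippocampus. WT pools 1, 2 and 3 stood at -2.81, -2.49 and -2.92, and CKO pools at -1.03, -1.05 and -1.10. The lowest CKO pool lay 1.39 above the highest WT pool, so the groups were far from overlapping. The means were -2.74 ± 0.22 (SD, n = 3) and -1.06 ± 0.04, a log2 difference of 1.68 (SE 0.18), or 3.21-fold. The CKO pools were packed within a narrow band although they differed in sex and age, and WT pools spread more widely. By pool number the difference was 1.78 in pool 1, 1.44 in the pool of females and 1.82 in the pool of males. It was 1.60 within slide 1 and 1.81 within slide 2, each with 2 arrays per genotype. Of the 18334 genes tested, 18 had a larger log2 rise.

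The Nmbr signal was well above background on 4 of 4 arrays of each genotype. In the processed signal of the scanner, WT arrays read 625 and 305 for both arrays of pool 1, 825 for pool 2 and 522 for pool 3. CKO arrays read 1884 and 1452 for pool 1, 2470 for pool 2 and 2230 for pool 3. The dimmest WT reading was 2.75 times the lowest well-above-background signal of its array, and the CKO readings were 13.9 to 21.7 times theirs. The repeat arrays of pool 1, which carry the same RNA, differed by 0.03 in WT and 0.08 in CKO. Nmbr was thus a detected transcript in both genotypes, with higher readings on CKO arrays.

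**Figure D1:**
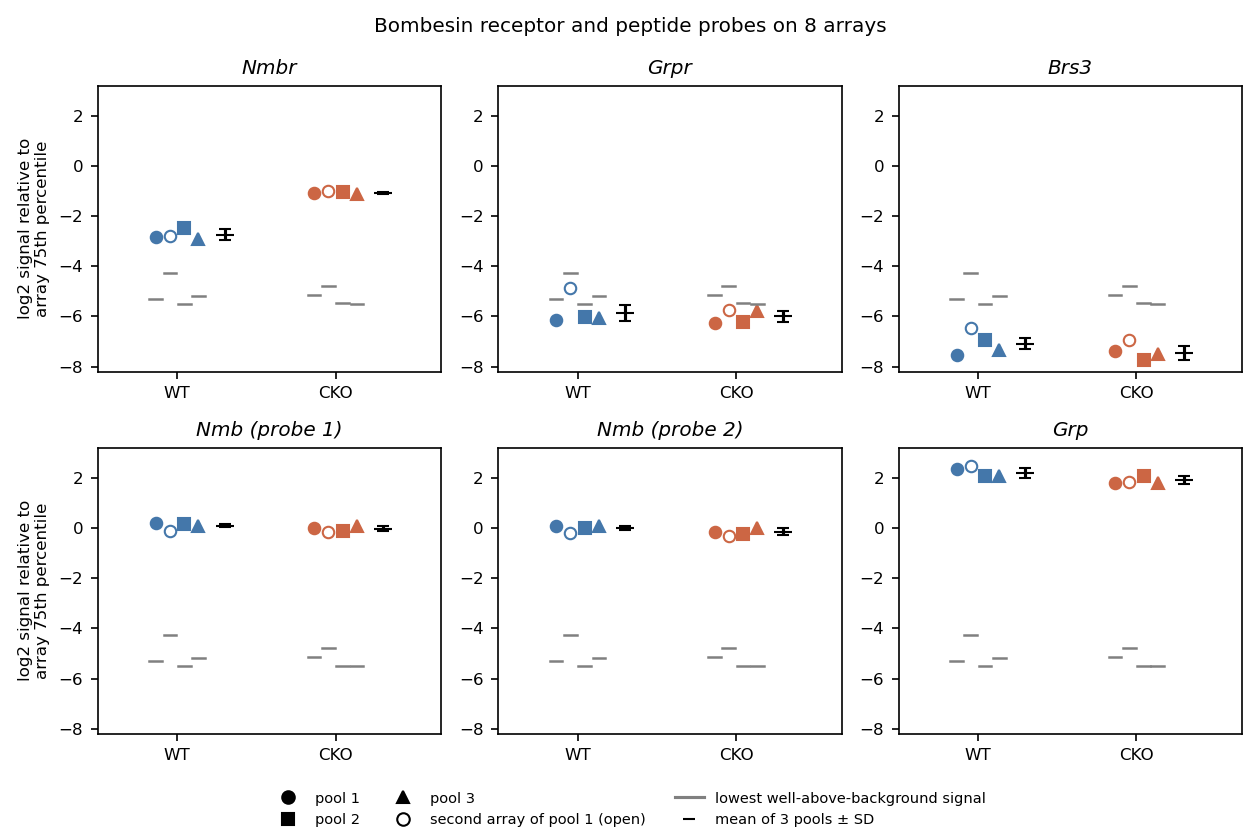
Log2 signal relative to the array's 75th percentile for the 6 probes, by genotype; symbols are arrays (open symbols the second array of pool 1), black bars the mean of 3 pools ± SD and grey dashes the lowest well-above-background signal of each array. Nmbr is the probe whose genotypes stand apart (-2.74 against -1.06), and Grpr and Brs3 lie under the grey dashes on all arrays.

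Grpr, the receptor of gastrin-releasing peptide, and Brs3 were not well above background on any of the 8 arrays. The Grpr probe read from 58.8 to 72.3 on WT arrays and from 52.1 to 86.9 on CKO arrays, between 0.47 and 0.83 of the lowest well-above-background signal of the same array. The Brs3 probe read from 23.6 to 38.2 on WT arrays and from 23.4 to 26.6 on CKO arrays. For both genes only an upper bound is known in either genotype, and no fold is given. Of the 3 receptor genes, Nmbr was therefore the measured one.

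Grp, the precursor of gastrin-releasing peptide, was bright in both genotypes. WT pools 1, 2 and 3 stood at 2.44, 2.07 and 2.09, and CKO pools at 1.82, 2.09 and 1.81. CKO pool 2, of females, lay between WT pools 2 and 3, so the groups overlapped. The means were 2.20 ± 0.21 (SD, n = 3) in WT and 1.91 ± 0.16 in CKO, a difference of -0.29 (SE 0.15), or 1.23-fold higher in WT. By pool number the difference was -0.62 in pool 1, 0.02 in pool 2 and -0.28 in pool 3, and it was -0.28 within slide 1 and -0.48 within slide 2. Without WT pool 1, the highest of the 6 pools, it was -0.17. Of all genes 6.77% had a more negative difference.

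Nmb, the precursor of the ligand that Nmbr prefers, stood close to the 75th percentile in both genotypes. By its first probe WT pools read 0.04, 0.18 and 0.10 and CKO pools -0.07, -0.09 and 0.10. The pools overlapped, since CKO pool 3 lay above WT pool 1. The means were 0.11 ± 0.07 (SD, n = 3) and -0.02 ± 0.11, a difference of -0.13 (SE 0.13). The second, largely overlapping probe gave -0.15 (SE 0.15), from -0.05, -0.0031 and 0.10 in WT pools and -0.22, -0.21 and 0.02 in CKO pools. By slide the first probe gave -0.23 and -0.02. Of all genes 23.7% had a difference below that of Nmb. Both peptide differences were of about the size of their SE or up to 2 times it.

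As the share of all genes against which the members stand, 5 of 18334 genes passed the limma test at an adjusted p under 0.05, all of them higher in CKO (0.0273%), and with the pool number as a block 103 passed (0.562%; 0.393% higher and 0.169% lower). Pools of the 2 genotypes did not overlap in 11.4% of genes (5.73% higher and 5.63% lower in CKO). Among the members 3 genes passed the filter on dim probes, and 1 of them, Nmbr, had pools that did not overlap. Because Nmbr was chosen on this contrast, nothing is read from that count. The median difference over all genes was -0.0032, and the central 95% of genes lay between -0.47 and 0.57.

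**Figure D2:**
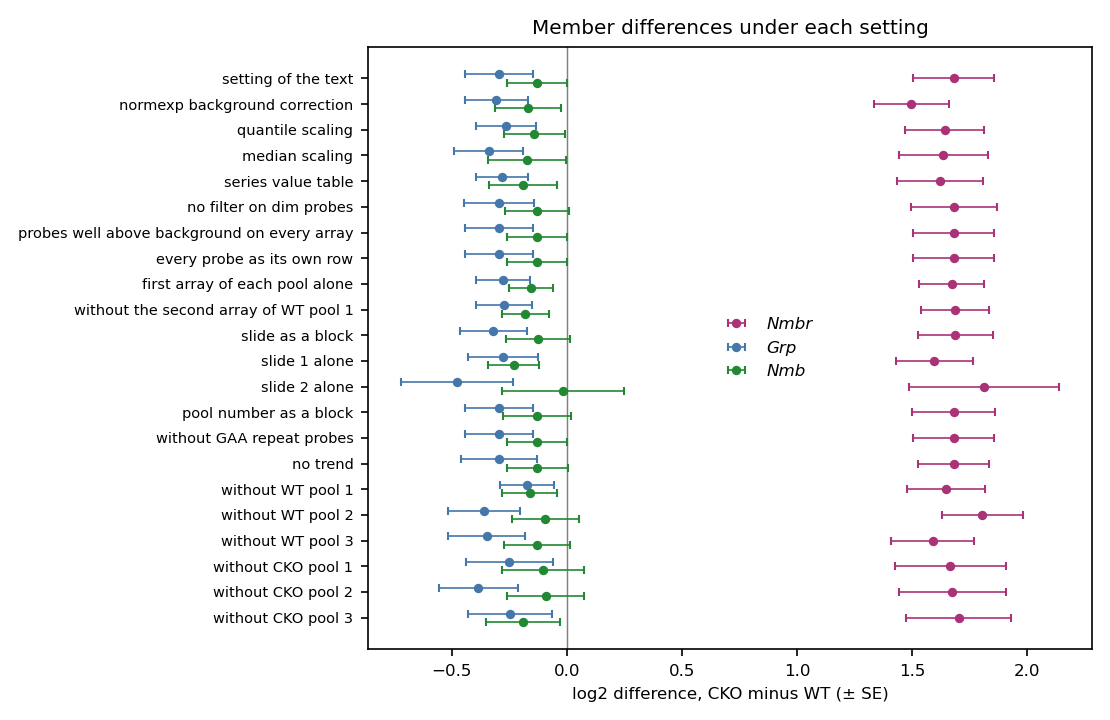
Log2 difference, CKO minus WT (x axis, bars are SE), of Nmbr, Grp and Nmb under the setting of the text and each of 21 alternatives (y axis). Nmbr stays between 1.50 and 1.81, Grp between -0.48 and -0.17 and Nmb between -0.23 and -0.02.

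The question whether genes that act with the bombesin receptors differed as well was put to 5 lists with 95 genes, none of them members, of which 80 passed the filter on dim probes. By limma over all genes 0 of the 80 passed the adjusted threshold in either direction, without or with the pool number as a block, and 11 (13.8%) had an unadjusted p under 0.05. Over all genes 2.92% were higher and 2.56% lower at that unadjusted level. Of the 80 genes 41 were higher and 39 lower, with a median of 0.0047. Pools did not overlap in 10 of the 80, against 11.4% of all genes. The median of the lists lay close to that of all genes. Of the 80 genes 5 passed the filter through their CKO arrays alone (Grk4, Dpp4, Lnpep, Tacr3 and Prokr2), since at least 1 WT array did not mark them well above background. Among the other 75 the pools did not overlap in 7, against the same 11.4% of all genes, and 8 had an unadjusted p under 0.05.

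Gq and phospholipase C signalling, the path that links these receptors to calcium, held 23 measured genes of 24, with 13 higher, 10 lower and a median of 0.02. The G-protein subunit genes Gnaq and Gna11, through which the receptors act, differed by -0.0011 (SE 0.12) and 0.08 (SE 0.13). Rgs2, which shortens Gq signals, stood at 2.35, 2.22 and 1.53 in WT pools and at 3.22, 2.32 and 3.03 in CKO pools. That is a difference of 0.83 (SE 0.28, limma adjusted p = 0.730), CKO pool 2 lay below WT pool 1, and a second Rgs2 probe gave 0.48. Trpc6, a cation channel opened downstream of phospholipase C, stood at -1.72, -1.13 and -1.31 in WT pools and at -1.89, -1.97 and -1.89 in CKO pools. It differed by -0.53 (SE 0.19, limma adjusted p = 0.786), and its pools did not overlap. Without the second array of WT pool 1 its adjusted p was 0.0418, and over all alternatives it ran from 0.0418 to 1.00.

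The 7 genes of receptor desensitisation, kinases and arrestins that switch off active receptors, were all measured, with 4 higher and 3 lower and a median of 0.0025. Arrb1 and Arrb2, the arrestin genes, differed by -0.05 (SE 0.16) and 0.0025 (SE 0.16). The receptor kinase gene Grk4 cleared background on 3 of 4 WT and 4 of 4 CKO arrays and so entered the test through CKO alone. Its level stood at -5.23, -4.14 and -4.18 in WT pools and at -3.56, -3.42 and -3.07 in CKO pools. The difference was 1.17 (SE 0.33, limma adjusted p = 0.537), and its other probes gave 0.66 and 1.22. It fell to 0.79 with normexp background correction and to 0.41 within slide 2, and a filter on all 8 arrays removed the gene. With repeat arrays left out its adjusted p was 0.0378, and over all alternatives it ran from 0.0378 to 1.00. Grk5, a related kinase gene, differed by 0.33 (SE 0.23, limma adjusted p = 0.999).

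Peptide processing and secretion, the enzymes and granule proteins through which neuropeptide precursors are cut, amidated and stored, held 17 measured genes of 17. Of these 9 were higher and 8 lower, with a median of 0.02. Among the enzymes that act on many precursors, the convertase genes Pcsk1 and Pcsk2 differed by 0.34 (SE 0.28) and -0.03 (SE 0.19), the carboxypeptidase gene Cpe by 0.02 (SE 0.13) and the amidating enzyme gene Pam by 0.10 (SE 0.19). Vgf, a granule protein gene, differed by 0.35 (SE 0.14, limma adjusted p = 0.890) and the convertase gene Pcsk5 by 0.37 (SE 0.22, limma adjusted p = 0.999). Peptide breakdown held 8 measured genes of 9, with 5 higher, 3 lower and a median of 0.10. Dpp4 and Lnpep, both among the higher genes, passed the filter through their CKO arrays alone, and without them the list's median was 0.02. Its endothelin-converting enzyme genes Ece1 and Ece2 differed by 0.44 (SE 0.23, limma adjusted p = 0.986) and -0.15 (SE 0.15, limma adjusted p = 0.999).

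The list of other neuropeptide receptors, which gives Nmbr a class to stand beside, held 25 measured genes of 38. Of these 10 were higher and 15 lower, with a median of -0.04, and the differences ran from -0.58 to 1.31. Ntsr1, a neurotensin receptor, stood at -1.31, -1.46 and -1.53 in WT pools and at -1.93, -2.07 and -2.02 in CKO pools. Its groups did not overlap, with a difference of -0.57 (SE 0.16, limma adjusted p = 0.516). Prokr2, a prokineticin receptor, passed the filter through its CKO arrays alone, with 3 of 4 WT arrays marking it well above background, and read from -5.82, -4.09 and -5.14 in WT pools to -3.98, -3.41 and -3.74 in CKO pools. It differed by 1.31 (SE 0.41, limma adjusted p = 0.656), by 0.77 with normexp background correction, and was removed by a filter on all 8 arrays. Among the 23 receptors that passed in both genotypes the differences ran from -0.57 to 0.44. In 6 of the 25 receptors the pools did not overlap, and in 4 of those 23, against 11.4% of all genes.

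**Figure D3:**
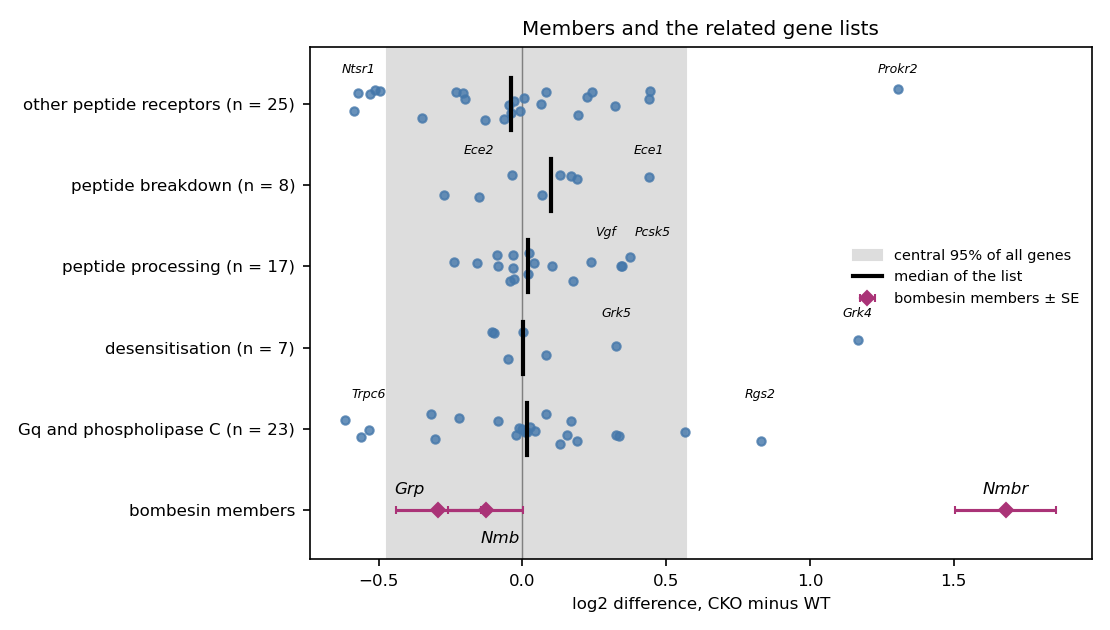
Log2 difference, CKO minus WT (x axis), of the measured bombesin members (diamonds, ± SE) and of the measured genes of 5 related lists (circles, 1 per gene; height within a row has no meaning), with the median of each list as a black bar and the central 95% of all genes in grey. List medians lie between -0.04 and 0.10, and Nmbr lies at 1.68. Among genes that passed the filter in both genotypes the list medians were between -0.04 and 0.02.

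CTCF shapes chromosome loops, so the genes next to each member were read as well, by taking the 3 nearest protein-coding genes on each side in RefSeq order. Of 30 such neighbours 21 were measured, 11 higher and 10 lower with a median of 0.02, and 0 passed the adjusted threshold in limma over all genes, with 0 at an unadjusted p under 0.05. Around Nmbr 4 of 6 neighbours were measured. On one side Adgrg6, an adhesion receptor gene, differed by 0.34 (SE 0.23). It passed the filter through its CKO arrays alone, with 3 of 4 WT arrays well above background, and differed by 0.10 with normexp background correction. On the same side Vta1, a gene of endosomal sorting, differed by -0.01 (SE 0.20). On the other side Cited2, a transcriptional co-regulator gene, differed by 0.17 (SE 0.25) and Heca by 0.04 (SE 0.22). The sign of Vta1 turned under 6 of 21 alternatives, that of Heca under 6 and that of Cited2 under 1. Gje1, the nearest gene on the first side, and Txlnb were not measured. All 4 measured neighbours lay within the central 95% of all genes.

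**Figure D4:**
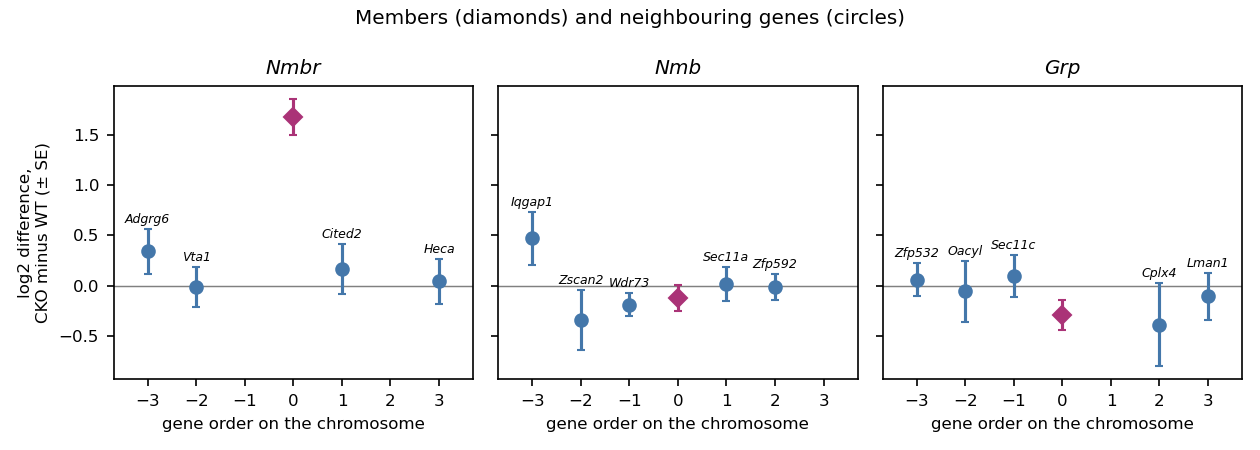
Log2 difference, CKO minus WT (y axis, bars are SE), of Nmbr, Nmb and Grp (diamonds at 0) and of their measured protein-coding neighbours (circles) by order along the chromosome (x axis, number of genes from the member). Nmbr stands at 1.68 among neighbours between -0.01 and 0.34.

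The genes whose pools followed Nmbr most closely were found over the 6 pools, as a description. Over all 6 pools, where most of the pattern is the distance between genotypes, the highest Pearson correlations with Nmbr were those of Rxfp1, a relaxin receptor gene (r = 0.995), Asl, the gene of argininosuccinate lyase (0.994), Podxl2 (0.992), P3h2 (0.991) and Rps6ka3 (0.989). Of 13873 named genes, 152 had an r over 0.9. Asl had a log2 difference of 1.36 and Rxfp1 of 1.75. With the genotype means subtracted, which leaves the spread between pools of one genotype, the highest were Stx1a (0.998), Pip4k2a (0.997), Lix1 (0.997), Champ1 (0.990) and Chst9 (0.990), and 242 genes had an r over 0.9. None of the 5 genes closest before this step was among the 5 closest after it. After it the Nmbr pattern was mostly that of the 3 WT pools (SD 0.22, against 0.04 in CKO pools). An r over so few points says little, and nothing is read from these names. For Grp the closest over 6 pools were Pecr (0.980), Frat1 (0.977), Pacrgl (0.977), Klhl35 (0.974) and Atp6v0e2 (0.973), and with genotype means subtracted Spr, Il10ra, Cdhr3, Osgin1 and Ebi3 (0.998 to 0.991). For Nmb they were Smad3 (0.970), Cspp1 (0.966), E2f3 (0.961), Irgq (0.954) and Islr2 (0.952), and with genotype means subtracted Rbm33, Chst11, Anks3, Smpd3 and Mideas (0.996 to 0.989). The pools share slides, so these points are not fully separate, and those of both pools numbered 1 are means of 2 arrays each.

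The tissue was checked against marker genes of the cells a hippocampal dissection can hold. Of 10 genes of hippocampal principal neurons 9 were measured and Prox1, a marker of dentate granule cells, was not. The difference was positive in 5 of the 9 and negative in 4, and its median was 0.03. Camk2a, Neurod6 and Zbtb20 differed by 0.03, -0.09 and 0.18, and a second Camk2a probe gave -0.25. The smallest p of the list were those of Wfs1, a marker of CA1 pyramidal cells, and C1ql2, a marker of dentate granule cells, and both were lower in CKO pools. Wfs1 stood at 2.46, 2.74 and 2.71 in WT pools and at 1.68, 1.70 and 1.79 in CKO pools. It differed by -0.91 (SE 0.12), with a limma adjusted p of 0.118 and of 0.0163 once pool number was a block. C1ql2 stood at 1.73, 1.35 and 0.42 in WT pools and at 0.20, -0.02 and 0.01 in CKO pools. It differed by -1.10 (SE 0.30), with a limma adjusted p of 0.476 and of 0.0466 with the block. In neither gene did the pools overlap, while in every other measured gene of this list they did. Over all genes 11.4% had pools that did not overlap. The part of CA1 and dentate granule cells in the Nmbr difference was not tested. The mean level of the 9 measured genes relative to the WT mean ran from -0.13 to 0.12 in WT pools. In CKO pools it ran from -0.26 to -0.04. Interneuron genes, which include the cells that gastrin-releasing peptide acts on, had 11 of 12 measured and a mean from -0.06 to 0.05 in WT pools and 0.01 to 0.07 in CKO pools. Among these 11, 1 gene passed the filter through its CKO arrays alone. Thalamus and habenula genes had 10 of 10 measured, from -0.42 to 0.33 in WT pools and -0.39 to -0.04 in CKO pools, and striatum genes 7 of 7, from -0.07 to 0.05 and -0.28 to -0.02. Neocortex and amygdala genes, 8 of 8, ran from -0.05 to 0.07 and from -0.18 to -0.04.

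Choroid plexus genes were all 10 measured, and in all 10 the CKO mean was above the WT mean. By gene, pools did not overlap in 2 of the 10, against 11.4% of all genes. Of the 10, 1 gene passed the filter through its CKO arrays alone, with 3 of 4 WT arrays well above background. The mean of the list stood at -1.12 in WT pool 1, 0.41 and 0.71 in WT pools 2 and 3, and 0.92, 0.93 and 0.44 in CKO pools. CKO pool 3 lay below WT pool 3, so the genotypes overlapped in this mean. Without WT pool 1 the Nmbr difference was 1.65. The part of choroid plexus content in the Nmbr difference was not tested. Oligodendrocyte genes, 6 of 6 measured, stood from -0.09 to 0.05 in WT pools and 0.15 to 0.34 in CKO pools, and the mean of this list separated the genotypes in the direction that Nmbr did. By gene, pools did not overlap in 2 of the 6, against 11.4% of all genes. The 2 other probes of 1 gene gave -0.42 and -0.09, against 0.22 by the probe used. Those of another gene gave 0.25 and 0.36, against 0.37. The part of oligodendrocyte content in the Nmbr difference was not tested. Microglia genes, 7 of 7, ran from -0.11 to 0.20 and from -0.10 to 0.37. Astrocyte genes, 6 of 6, ran from -0.06 to 0.07 and from -0.05 to 0.28, and endothelial genes, 5 of 5, from -0.13 to 0.10 and from -0.11 to 0.12. In the means of these 3 lists the genotypes overlapped. Gfap, a gene of astrocyte filaments, stood at 1.94, 2.37 and 2.16 in WT pools and at 2.56, 3.19 and 2.77 in CKO pools. It differed by 0.68 (SE 0.18) without overlap, with a limma adjusted p of 0.503 and of 0.0460 with the pool number as a block. Of the 6 astrocyte genes 3 were higher and 3 lower in CKO, with a median of -0.0048. Their differences ran from -0.22 to 0.68. Pools did not overlap in 2 of them, Gfap and the gene with the lowest difference, against 11.4% of all genes.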

How the data were processed

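Total RNA of pooled hippocampi was hybridised in the Cy5 channel alone on Agilent arrays. The submitters' processing notes name Agilent Feature Extraction 11.5 as the source of the deposited spot intensities. The processed signal was subtracted for background and detrended within each array, per the file headers, with no step that equalises arrays, and the other deposited columns used are flags (well above background, saturated, outlier, control type). The authors' series value table also holds intensities, with a scaling not given in the sources used here.

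From these, log2 processed signal minus each array's 75th percentile was taken, outlier spots were left out, repeat spots and then repeat arrays were averaged (n = 3 pools per genotype), a probe was kept if all arrays of either genotype marked it well above background, and the brightest probe stood for its gene. Genotypes were compared with limma 3.58.1 (lmFit, eBayes with trend, two-sided, Benjamini-Hochberg over 18334 genes) in R 4.3.3, and the fit was tested on simulated data. The number of pools, 3 per genotype, limits the precision. The labels do not say that pools of a number share litters. The p-values judge the genotype difference against the spread between pools, which limma moderates over genes. The spread between single mice is not seen in pools. Names came from RefSeq GRCm38.p6 by accession for 27508 probes, by symbol for 3544 and by synonym for 404; 7973 kept the file's name. The build in the file headers is mm9, so no gene coordinates of the name table are given.

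Deviations from the genotype means correlated across genes between pools of the same number (r = 0.55 for pool 1, 0.34 for pool 2 and 0.13 for pool 3; 0.09, 0.08 and 0.12 with first arrays alone). Between pools of unlike number r ran from -0.48 to 0.12, and from -0.115 to 0.037 with first arrays alone, so for pool 3 the match stood out little. Pools of the same number hold the same numbers of each sex at the same ages per the labels, so the pool number was used as a block in an alternative. The text names all members, per list the genes past the threshold or else the 2 of smallest unadjusted p, the 5 closest genes by correlation, and Nmbr's neighbours; Gnaq, Gna11, Arrb1, Arrb2, Pcsk1, Pcsk2, Cpe and Pam were named for their roles, and Camk2a, Neurod6, Zbtb20, Wfs1, C1ql2 and Gfap after their values were seen. The members and lists were chosen with earlier results of these data known. Alternatives were another background correction, scaling, the value table, filters on probes, left-out arrays, pools or slides, blocks for slide and pool number, and a fit without trend.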

Additional observations from a re-analysis of the deposited data

Results flagged for a closer look

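The genotype difference of Grp had opposite signs in the pools of one sex, 0.022 in pool 2 (3 females per genotype) and -0.28 in pool 3 (3 males per genotype). There was 1 pool of each sex and genotype, the pools also differ in age, and the difference between the sexes was not tested. Groups of 3 pools are too small for the outlier test used on larger groups, so no pool was tested for standing apart.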

How the results depend on the processing

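Across 21 alternatives Nmbr kept its direction, from 1.50 to 1.81, and moved by more than the spread between pools under normexp background correction alone (1.50). The call that led to its choice was kept in 14 of 21 alternatives and lost in 7: the authors' value table, each slide alone, and without WT pool 3 or CKO pool 1, 2 or 3. Grp kept its sign in all 21. Nmb kept its sign and moved to -0.23 within slide 1 and -0.017 within slide 2.

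The count of 5 genes past the threshold became 3 with the value table, 8 with every probe on its own, 139 with first arrays alone (70 higher, 69 lower) and 139 without the second array of WT pool 1 (72 higher, 67 lower), 12 within slide 1 (6 each way) and 0 within slide 2, and 103 with the pool number as a block (72 higher, 31 lower); with 1 pool left out it ran from 0 to 18 (0 without WT pool 3 or CKO pool 3, 2 without CKO pool 1, 18, with 13 higher, without WT pool 1). Of the list genes 1 passed with first arrays alone (Grk4) and 1 without the second array of WT pool 1 (Trpc6), and 0 with 1 pool left out. Of 65 measured genes named in the text that are no members the block changed the call of 7 (Ctcf, Wfs1, C1ql2, Gfap, Rxfp1, P3h2 and Rps6ka3), all of which passed with it. Uncalled differences also moved: Pcsk5 to 0.03 within slide 1 and 0.16 without WT pool 3, Grk5 to 0.16 without WT pool 2, and Ece1 to 0.25 without WT pool 3.

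Signs turned for 3 neighbours of Nmbr whose differences are within their SE. Vta1 read 0.022 with quantile scaling, 0.062 with first arrays alone, 0.14 without the second array of WT pool 1, 0.047 within slide 1, and with 1 pool left out from -0.18 to 0.22. Heca read -0.00034 with median scaling, -0.10 with first arrays alone, -0.15 without the second array of WT pool 1, -0.063 within slide 1, and with 1 pool left out from -0.21 to 0.22. Cited2 read -0.10 within slide 2. The causes were not tested. Signals at background bound Grpr and Brs3 from above.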

Other observations

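On the second arrays of pool 1, which were dimmer than the first, the scaled values of the undetected receptors stood higher than on their mates, by 1.28 for Grpr and 1.08 for Brs3 in WT and by 0.52 and 0.44 in CKO. The processed signals themselves were close, 62.1 and 72.3 for Grpr and 23.6 and 24.0 for Brs3 in WT. For the detected genes the same pairs differed by 0.03 (Nmbr), 0.13 (Grp) and -0.31 (first Nmb probe) in WT and by 0.08, 0.03 and -0.15 in CKO.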
